A study of Mus musculus with 4 samples.

Results

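Pi16+ fibroblasts of the mouse aortic arch were chosen here by their UMIs (unique molecular identifiers, the counted RNA molecules). Among barcodes with 200 to 6000 detected genes and at most 15% mitochondrial UMIs, a fibroblast had at least 10 UMIs of the matrix proteoglycan gene Dcn, at least 1 of the growth factor receptor gene Pdgfra, none of the leukocyte gene Ptprc and at most 1 of the smooth muscle myosin gene Myh11. A Pi16+ fibroblast then had at least 3 UMIs of Pi16 and Dact2 together and at most 1 UMI of Tfap2b and Mab21l2 together. There were 5226 such cells among 6327 fibroblasts (82.6%) and 14148 kept cells (36.9%). The other fibroblasts were 1101 cells, of which 1038 had too few UMIs of Pi16 and Dact2 and 63 too many of Tfap2b and Mab21l2. The rule used levels measured in these same cells, so the genes of the rule, and every difference between cells that were split on measured levels, are given as descriptions without a test.

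The study asked how macrophages of atherosclerotic aortas differ when they lack a working transcription factor Nrf2, encoded by Nfe2l2. Fibroblasts were sequenced along with them. Single-cell RNA sequencing (10x Genomics 3′ chemistry) was done on dissociated, viability-sorted cells of the aortic arch with its branches from male mice that were 3 months old at the start. All mice carried Nfe2l2 alleles with a floxed exon 5; those of the Nrf2Cdh5tKO genotype also carried Cre under the Cdh5 promoter, which acts in endothelium and in some blood cells and is not a fibroblast driver. Normocholesterolemic mice had a single saline injection and standard diet, and atherosclerotic mice a single injection of a viral vector and high-fat diet for 21 weeks. Each of the 4 groups was 1 library, pooled from 4 mice when normocholesterolemic and from 3 when atherosclerotic. The libraries are called Lox_CTR and Lox_HFD for the 2 Nrf2flox/flox groups, and KO_CTR and KO_HFD for the 2 libraries labelled Nrf2Cdh5tKO. Virus and diet were always given together, and "diet" below stands for both. With 1 library per group, conditions were described and not tested, and no p-value is given. Intervals are exact 95% intervals that cover counting error only, not the spread between mice.

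Pi16 encodes a secreted or membrane-bound peptidase inhibitor that, with the surface peptidase gene Dpp4, marks adventitial fibroblasts found in many organs around large vessels. Such cells are known for a matrix-rich, stem-like expression profile, and in adipose tissue and skin they can give rise to more specialised fibroblasts. Dact2 encodes an intracellular modulator of Wnt and TGF-beta signalling. Wnt proteins, among them Wnt10b, bind Frizzled receptors at the cell surface, R-spondins strengthen that signal, and Dickkopf and Sfrp proteins dampen it.

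The label of these cells, progenitor-like fibroblasts with Pi16 and Dact2, held for Pi16 and in a minority for the other markers. The rule was met almost wholly through Pi16: 8 members had fewer than 3 Pi16 UMIs and none had 0. A UMI of Dact2 was seen in 923 members (17.7%), and at least 3 in 297 (5.68%). Wnt10b, a Wnt ligand, had a UMI in 19.6% of members, 2.45% of other fibroblasts and 0.463% of smooth muscle cells (Myh11 at least 5 UMIs, no Pdgfra or Ptprc), with medians of 14128.5, 10732 and 15395.5 UMIs per cell. Cadm3, a cell adhesion molecule, stood at 25.5%, 3.81% and 0.695% in the same groups. Aldh1a3, an enzyme that makes retinoic acid, stood at 17.5%, 4.90% and 0.695%. Each of the 3 markers was thus seen in 25.5% of members or fewer, above its share in smooth muscle cells, which should lack them. General fibroblast genes were almost everywhere: Col1a1, a collagen I chain, in 98.97% of members and 96.6% of other fibroblasts, and Lum, encoding the collagen-binding proteoglycan lumican, in 94.3% and 93.0%. The cells are therefore called Pi16+ fibroblasts below. Pi16 itself lies on chromosome 17 at 29317680 to 29330593 (plus strand, GRCm38) and Dact2 on chromosome 17 at 14195052 to 14204304 (minus strand).

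Pi16 UMIs were also found in other cell types. At least 3 UMIs of Pi16 and Dact2 together were met by 10.9%, 2.11%, 1.64% and 4.02% of the smooth muscle cells of Lox_CTR, KO_CTR, Lox_HFD and KO_HFD, the order used for all values by library. In leukocytes (Ptprc at least 2 UMIs, Dcn under 10) the shares were 10.9%, 3.86%, 4.55% and 0.880%. In Lox_HFD, 12 of the 61 smooth muscle cells held the 196 Pi16 UMIs seen and 1 of them met the limit, so most of these UMIs lay in 1 cell. In the few endothelial cells described below the shares were 4.44%, 27.3%, 6.67% and 6.67%, highest in KO_CTR. The source of these UMIs, free RNA included, was not tested. The median member lay well above the limit, with 22, 32, 28.5 and 17 Pi16 UMIs and a highest value of 472, 760, 551 and 456.

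The target of the deletion was read first. Nfe2l2 (chromosome 2, 75675513 to 75704641, minus strand) stood in Pi16+ fibroblasts at 197 (192 to 201), 206, 211 and 258 (248 to 268) UMIs per 1000000 (CPM). In the 45, 22, 15 and 15 endothelial cells found (Pecam1 at least 3 and Cdh5 at least 2 UMIs, Dcn under 10, no Ptprc), its levels were 167, 426, 171 and 357 CPM, with intervals from 121 to 225, 328 to 544, 95.7 to 282 and 247 to 499. Among these endothelial cells it was higher in both libraries labelled Nrf2Cdh5tKO. Exon 5 is the last exon of the coding transcript (75675513 to 75677184), and a 3′ library reads mostly the end of a transcript. How far the deletion reaches and where the reads lie were not analysed here. The level of Nfe2l2 in these few endothelial cells therefore does not check the labels in either direction, and a direction between genotypes below is one between libraries as labelled.

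The 4 libraries held 8512, 3460, 1160 and 2467 barcodes with 98754487, 43717402, 12276546 and 24184211 UMIs. The limits kept 7890, 2972, 1020 and 2266 cells, of which 3568, 1396, 408 and 955 were fibroblasts and 2858, 1276, 350 and 742 were Pi16+. Members held 37371820, 21973915, 5444376 and 9425922 UMIs in all, so Lox_HFD gives the least precise values. Median UMIs per member were 13059, 17067, 15218.5 and 12325.5, against 10876.5, 13378, 9031.5 and 8673 in the other fibroblasts. Only 3 cell barcodes of members, and 22 of kept cells, occurred in more than 1 library.

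The Pi16+ share of fibroblasts was 80.1% (78.8 to 81.4) in Lox_CTR, 91.4% (89.8 to 92.8) in KO_CTR, 85.8% (82.0 to 89.0) in Lox_HFD and 77.7% (74.9 to 80.3) in KO_HFD. KO_CTR stood highest and KO_HFD lowest, and the share differed in opposite directions in the 2 pairs of diet and in the 2 pairs of genotype. KO_CTR also had the deepest cells, and a deeper cell reaches 3 UMIs more easily. For equal depth, cells were thinned to 5000 UMIs, shallower cells were left out and fibroblasts were chosen anew with a lower limit for Dcn. With at least 2 UMIs of Pi16 and Dact2 the share was then 76.9%, 87.8%, 85.4% and 77.1%, and the atherosclerotic KO_HFD stood level with Lox_CTR. Pi16 itself varied widely among members, with a 5th percentile of 307, 367, 299.9 and 312 CPM, a median of 2046, 1974, 2154 and 1768, and a 95th percentile of 11906, 11744, 12249 and 10373. The medians differed by far less than this spread. At the limit, 290 fibroblasts with 2 UMIs stood beside 236 with 3: Cxcl14, a chemokine, was at 98.0 and 59.3 CPM, Comp, a cartilage matrix protein, at 275 and 309.5, and Dpp4 at 14.2 and 12.2.

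**Figure D1:**
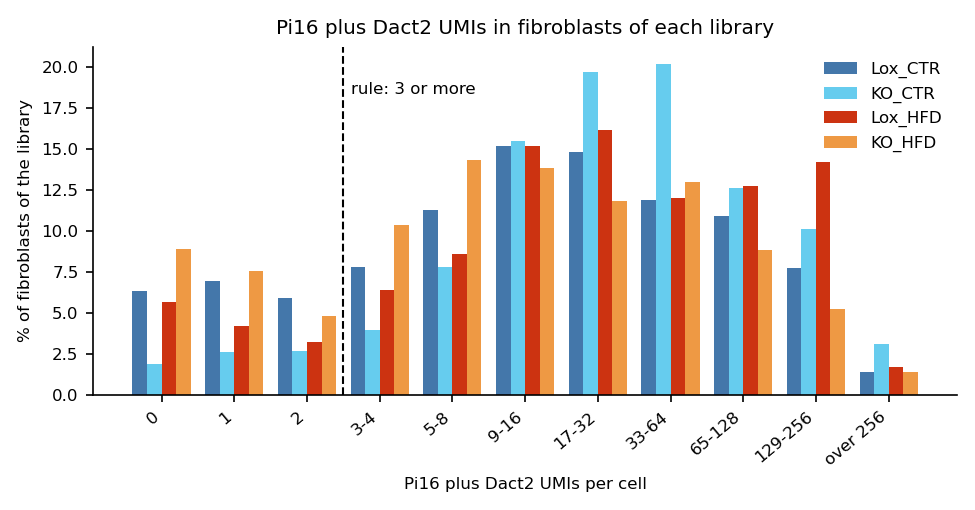
Share of fibroblasts (%, vertical axis) by the UMIs of Pi16 and Dact2 in the cell (horizontal axis, in bins that widen to the right), with a bar per library in each bin; the dashed line marks the limit of 3 UMIs. In every library most fibroblasts lie to the right of the limit, and the Pi16+ share ran from 77.7% in KO_HFD to 91.4% in KO_CTR.

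Set against the other fibroblasts of the same library, Pi16+ fibroblasts had more RNA of Dpp4 and many genes of its profile. The BMP ligands Bmp3 and Bmp7 and the retinoic acid enzyme Aldh1a3 were higher too, while the collagen I gene Col1a1 had no single direction. Genes were compared where both cell groups together had at least 20 UMIs in every library. Of these 10594 genes, 95 (0.897%) were higher by over 2-fold in all 4 libraries and 28 (0.264%) lower. The median log2 ratio of all compared genes was 0.01. Of the 34 compared genes listed for Pi16+ Dpp4+ fibroblasts of other organs, 19 were over 2-fold higher in all libraries and none over 2-fold lower, and the list's median log2 ratio was 1.62. These are descriptions of cells chosen for Pi16, a gene of the same profile.

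Among the surface and secreted genes of that list, Dpp4 stood at 64.8, 61.9, 114 and 90.7 CPM in members and at 7.21, 23.0, 5.49 and 7.46 in other fibroblasts, 7.51-fold (6.19 to 9.19) over all libraries. Cd55, whose product shields cells from complement, stood at 226, 287, 332 and 308 against 49.2, 90.3, 45.8 and 57.5 CPM. Sema3c, a secreted guidance protein, stood at 225, 275, 461 and 356 against 53.8, 109, 36.6 and 56.5 CPM. The member and other-fibroblast values of these 3 genes, picked from those past 2-fold in all libraries, did not overlap. How many of all compared genes do the same was not counted. Smpd3, a membrane sphingomyelinase, was 7.53-fold higher and stood at 440 and 316 CPM in members of the atherosclerotic libraries against 118 and 130 in the normocholesterolemic ones. Anxa3, an annexin, was 4.87-fold higher, Ly6c1, a surface protein, 3.53-fold and Igfbp5, an insulin-like growth factor binding protein, 3.13-fold. The commonly used progenitor markers Ly6a (2.18-fold) and Cd34 (2.03-fold) were higher over all libraries together but did not pass 2-fold in each of the 4.

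Of the signalling genes, Wnt10b stood at 25.3, 18.7, 27.9 and 25.0 CPM in members against 4.02, 1.87, 7.32 and 4.26 in other fibroblasts, and Wnt2, also a Wnt ligand, was 6.13-fold higher. Rspo3, the R-spondin that strengthens Wnt signals, went the other way, at 12.2, 7.01, 8.08 and 14.5 against 67.7, 67.9, 97.0 and 99.6 CPM. None of 13 compared Wnt receptor genes, 10 compared inhibitor genes or 7 compared target genes passed 2-fold in all libraries in either direction. Of 11 compared Wnt ligand, R-spondin and secretion genes, Wnt2 and Wnt10b were higher and Rspo3 lower, and the list's median log2 ratio was 0.10. Bmp3 and Bmp7, ligands of the BMP family, were the 2 of 33 compared BMP and TGF-beta genes that passed. Bmp7 had 530 UMIs in members and 7 in other fibroblasts, 11.5-fold (5.53 to 28.7), and Bmp3 stood at 12.3, 12.4, 43.7 and 34.9 CPM against 0.832, 0, 5.49 and 2.13. In retinoic acid metabolism Aldh1a3 and Adh7, an alcohol dehydrogenase, were higher among 15 compared genes, while the list's median log2 ratio was −0.15. Aldh1a3 stood at 36.4, 41.7, 66.9 and 41.6 CPM against 11.4, 5.61, 0 and 0, and Adh7 was 3.58-fold higher. Cadm3 stood at 49.9, 37.5, 52.2 and 49.8 CPM against 6.1, 6.85, 7.32 and 4.80.

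Some genes were seen almost only in members, but in few of them. Krtdap, known from differentiating keratinocytes, had 792 UMIs in 47, 19, 12 and 21 members and 0 in other fibroblasts, with 55 of the 211 UMIs of KO_HFD in 1 cell, at least 39.98-fold higher with a floor of 3 UMIs over the group. Mrgprg, a receptor gene of the Mas-related family, had 570 and 2 UMIs, 43.2-fold (11.9 to 357), and Lypd2, a Ly6-family gene, was 17.2-fold (9.04 to 37.8) higher. Efhd1 and Ugdh were higher in members but were also seen in the other fibroblasts. Efhd1, a mitochondrial calcium-binding protein, stood at 72.3, 71.1, 113 and 90.9 against 10.1, 8.10, 5.49 and 10.7 CPM. Ugdh, the enzyme that makes the sugar nucleotide for hyaluronan and other glycosaminoglycans, stood at 819, 662, 733 and 809 against 219, 181, 157 and 154 CPM.

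Few extracellular matrix genes passed 2-fold in all libraries. Of the 25 compared collagen genes, 10 lay below 0 in all libraries and 2 above. Col1a1 stood at 1729, 2255, 1733 and 1296 CPM in members against 1862, 3179, 1466 and 1720 in other fibroblasts, with no single direction, and of 25 compared collagen genes Col12a1 was the only one over 2-fold higher and Col27a1 the only one lower in all libraries. None of 10 small leucine-rich proteoglycan genes passed, with 6 below 0 in all libraries and 2 above. Lum stood at 1305, 931, 679 and 818 against 2032, 1482, 1728 and 1608 CPM, lower in every library. Among 31 proteases and inhibitors the aggrecan-cleaving Adamts5 (3.1-fold), the proprotein convertase Pcsk6 (4.44-fold) and the plasminogen activator Plau (4.10-fold) were higher, and of 21 elastic fibre genes Emilin2 (3.73-fold). Below the other fibroblasts stood Igfbp3, an insulin-like growth factor binding protein, at 22.8, 5.37, 6.98 and 4.77 against 114, 105, 58.6 and 19.2 CPM. Enpp2, which makes lysophosphatidic acid, was at 0.203-fold and Angpt2, an angiopoietin, at 0.258-fold. Cxcl14 was at 9.34, 13.5, 0 and 4.88 against 139, 111, 98.8 and 9.06 CPM and did not pass 2-fold in KO_HFD. The smooth muscle list (6 compared genes) had a median log2 ratio of −0.72 and Mylk, a myosin kinase, was lower in every library. The other fibroblasts thus carried more smooth muscle RNA, whose part in these differences was not tested.

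Within the Pi16+ fibroblasts many of the same genes followed the level of Pi16. Members of all libraries were split into 4 bins of equal size, Q1 to Q4, by Pi16 UMIs per 10000 (limits 8.93, 19.8 and 46.7), giving 1307, 1306, 1306 and 1307 cells with medians of 6, 17, 39 and 124 Pi16 UMIs and 14001, 13072, 13744.5 and 15413 UMIs in all. Q4 held 26.3% (24.7 to 27.9), 22.9% (20.6 to 25.3), 31.7% (26.9 to 36.9) and 20.6% (17.8 to 23.7) of the members of the 4 libraries. Of 9372 compared genes, 174 (1.86%) were over 2-fold higher in Q4 than in Q1 in all 4 libraries and 221 (2.36%) lower. Without the Dact2 cells, an alternative chosen after seeing the data, 71 were higher and 99 lower. A steady order from Q1 to Q4 in every library was seen for 114 genes with the highest level in Q4 (1.22%) and 93 with the lowest there (0.992%). Of the 95 genes higher in members than in other fibroblasts, 77 (81.1%) were among the 174 (44.3% of these). Both comparisons split cells on Pi16 and both use the Q4 cells, so the overlap is given as a description.

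The genes of the Dpp4 profile were higher with more Pi16: 25 of 33 compared were over 2-fold higher in Q4 in all libraries, and all 33 were above 0, with a median log2 ratio of 1.58 against 0.03 for all compared genes. Dpp4 stood at 17.0, 18.7, 50.6 and 185 CPM from Q1 to Q4. By library Q4 and Q1 stood at 156 and 15.8 CPM in Lox_CTR, 191.5 and 19.9 in KO_CTR, 256 and 23.8 in Lox_HFD and 249 and 13.2 in KO_HFD. In CPM the largest step lay between Q3 and Q4, and every Q4 value lay above every Q1 value. As a fold the step from Q2 to Q3 was the larger in KO_HFD, at 23.0, 101 and 249 CPM in Q2, Q3 and Q4. Bmp7 followed the same course, at 0.846, 1.04, 3.57 and 21.5 CPM, and Bmp3 at 2.54, 3.24, 10.5 and 50.1. Aldh1a3 stood at 7.83, 9.82, 28.8 and 110 CPM, against 8.10 in the other fibroblasts of all libraries together. By library, Aldh1a3 in Q1 and in the other fibroblasts stood at 9.37 and 11.4, 9.43 and 5.61, 1.40 and 0, and 3.12 and 0 CPM, so Q1 was the lower only in Lox_CTR. Wnt10b stood at 10.4, 11.4, 20.5 and 49.1 CPM, and Cadm3 at 14.1, 22.8, 33.4 and 109. In every library both stood higher in Q1 than in the other fibroblasts, which were at 3.92 and 6.05 CPM over all libraries. Fbn1, the fibrillin of elastic microfibrils, had a shallower course, with 544 CPM in Q1 and 1431 in Q4, as had its partner Mfap5, with 1212 and 3045, and Ly6a, with 1048 and 2432. Nfe2l2 was also among the genes with a steady order, at 166, 179.8, 202 and 278 CPM.

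**Figure D2:**
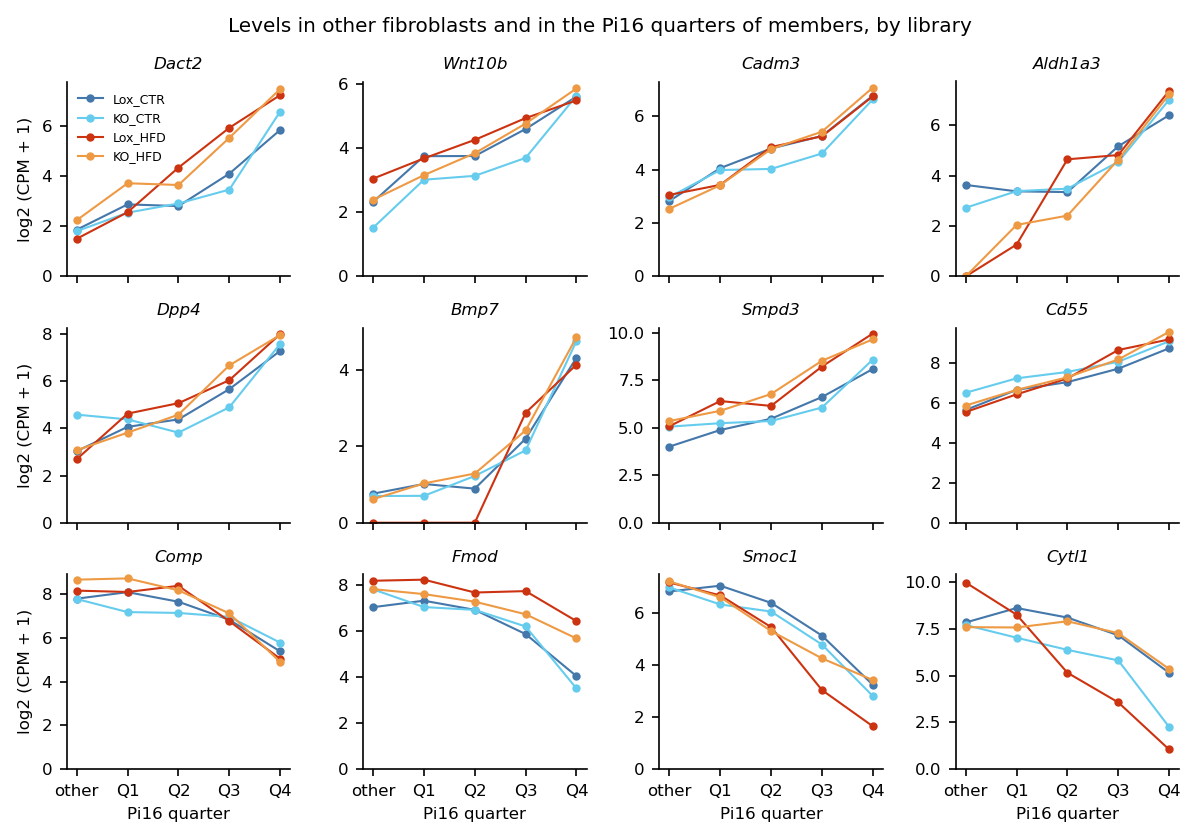
Level of 12 genes (log2 of CPM + 1, vertical axis) in the other fibroblasts and in the 4 bins of Pi16+ fibroblasts by Pi16 level (Q1 to Q4, horizontal axis), a line per library. Dact2, Wnt10b, Cadm3, Aldh1a3, Dpp4, Bmp7, Smpd3 and Cd55 stand higher in Q4 than in Q1 in all 4 libraries, and Comp, Fmod, Smoc1 and Cytl1 lower.

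Genes lower in Q4 than in Q1 included several of the matrix. Comp stood at 263, 198, 119 and 42.2 CPM from Q1 to Q4, and Fmod, encoding the collagen-binding proteoglycan fibromodulin, at 168, 129.6, 78.2 and 24.4. Smoc1, a matricellular calcium-binding protein, stood at 112, 69.7, 28.1 and 7.38 CPM, and by library Q4 and Q1 were at 8.48 and 133, 6.03 and 80.0, 2.14 and 102, and 9.77 and 97.4. Over all libraries the other fibroblasts stood at 255, 168 and 123 CPM for these 3 genes. By library the gap varied: in KO_CTR, Q1 was below the other fibroblasts for Comp (144 and 219), Fmod (131 and 224) and Smoc1 (80.0 and 126), while in Lox_CTR it was above them for all 3. Lamc3, a laminin chain, was at 0.0518-fold (0.0402 to 0.0658) in Q4 against Q1 and Cytl1, a cytokine-like protein of cartilage, at 0.0828-fold. Of 23 compared collagen genes Col12a1 was higher in Q4 (23.0 CPM in Q1 and 93.8 in Q4) and 6 were lower, among them Col4a1 and Col4a2 of the basement membrane and Col15a1 (0.250-fold). Of 10 small leucine-rich proteoglycans 3 were lower: Fmod, Lum and Prelp. Among 9 compared Wnt inhibitors Dact3, Dkk3, Frzb and Sfrp2 were lower and Dact1 higher, while none of 12 Wnt receptors passed 2-fold in either direction. Of 23 compared genes on the list of chemokines, cytokines and receptors, the chemokines Cxcl12 (666 CPM in Q1 and 276 in Q4) and Cx3cl1 (0.0494-fold) were lower in Q4. Higher were 5 genes, Il33, Ackr2, Ackr3, Il13ra1 and Ptgs1, the last of which is on the list but encodes an enzyme. Also lower were the transcription factor genes Foxc2, Foxs1, Snai1, Snai2 and Nr2f2, whereas Ebf2 and Creb5 were higher. Apoe, the lipid-carrying apolipoprotein, stood at 3445 CPM in Q1 and 903 in Q4. All 5 compared smooth muscle genes were below 0 (median log2 ratio −0.99), and their part in these differences was not tested.

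Not every gene followed the Pi16 level in one direction. Cilp, a matrix protein of cartilage, stood at 42.4, 94.9, 116 and 31.2 CPM from Q1 to Q4, and the transcription factor gene Meox1 at 44.8, 92.6, 98.2 and 11.1. These are sums over libraries. Cilp was highest in Q2 in KO_CTR and Meox1 in Q1 in Lox_HFD (33 of 42 UMIs), so no bin was highest in every library. Marker genes of other fibroblast groups were found inside the Pi16+ cells too. At least 3 UMIs of Comp and Fmod together were carried by 33.4%, 29.6%, 20.4% and 7.50% of Q1 to Q4, and by 27.4% of the other fibroblasts. For Cilp and Meox1 the shares were 9.87%, 16.5%, 18.4% and 4.44%, and for Penk, Epyc and Fgf10 19.5%, 20.1%, 24.7% and 29.3%. The last 3 genes, which encode an opioid precursor, a proteoglycan and a growth factor, were thus seen most often in Q4, where the other gene pairs were seen least. The rule selected a range of Pi16 levels and not a group set apart by these genes.

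The members with a Dact2 UMI were 923 cells (417, 232, 98 and 176) with a median Pi16 level of 60.7 per 10000 UMIs, against 16.6 in the 4303 without, and a median depth of 16939 against 13370 UMIs. The share with a Dact2 UMI was 6.43%, 6.81%, 14.9% and 42.5% from Q1 to Q4. Of 10404 compared genes, 131 (1.26%) were over 2-fold higher in the Dact2 cells in all libraries and 228 (2.19%) lower, and 110 of the 131 (84.0%) were also among the 174 genes higher in Q4 (63.2% of these). Dpp4 stood at 175, 199.7, 248 and 238 CPM with and 39.0, 25.8, 48.4 and 28.9 without Dact2. Comp stood at 8.73, 30.7, 5.05 and 34.9 CPM with and 187, 138, 248 and 316 without. Neither gene's values overlapped between these cell groups, and how many of all compared genes do the same was not counted. At least 3 UMIs of Comp and Fmod together were found in 4.01% of members with Dact2 and 26.7% of those without.

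Among the genes with the largest ratios by Dact2 were some seen in few cells. Krt19, a keratin, stood at 33.7, 22.8, 26.4 and 18.0 CPM with Dact2 and at 1.82, 1.72, 0 and 0.150 without. Krtdap was 24.2-fold (19.6 to 30.1) higher, Dmkn, a secreted protein of the epidermis, 20.7-fold (15.9 to 27.3), Sbsn, also from epidermis, 9.46-fold (8.55 to 10.5), and Cldn3, a tight junction protein, 7.84-fold (6.92 to 8.90). Krt19 had a UMI in 3.39%, 3.68%, 4.86% and 4.04% of all members, Dmkn in 1.57%, 1.10%, 1.71% and 2.29%, and Sbsn in 10.4%, 11.8%, 10.6% and 12.3%. Krt19 was also the most abundant gene of the mesothelial marker list in members, whose summed level was 15.5, 13.2, 8.82 and 6.58 CPM. Wnt2, Wnt10b and Wnt11 were higher with Dact2 among 11 compared Wnt ligands and R-spondins, and Wnt6 was lower. Since Dact2 and Pi16 went together, the split was repeated inside Q4, with 555 cells against 752. There, 36 of 7604 genes (0.473%) were higher and 39 (0.513%) lower in all libraries. Krt19 was still 18.6-fold (12.3 to 29.4) higher, Dmkn 14.8-fold, Krtdap 8.02-fold, Sbsn 7.11-fold, Bmp3 6.86-fold and Akr1c18, a steroid dehydrogenase, 6.08-fold, while 5 of the 33 compared genes of the Dpp4 profile passed (Dpp4, Cd55, Sema3c, Limch1 and Pla1a). Pax1, a transcription factor gene, was at 0.0970-fold and Mfap4, a microfibril protein, at 0.228-fold. Inside Q4 the Dact2 cells still had a higher median of Pi16 (92.8 against 71.4 per 10000) and of UMIs (16505 against 14541.5), so level and depth were not fully matched.

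The share of members with a Dact2 UMI was higher in both atherosclerotic libraries. It was 14.6% (13.3 to 15.9) in Lox_CTR, 18.2% (16.1 to 20.4) in KO_CTR, 28.0% (23.4 to 33.0) in Lox_HFD and 23.7% (20.7 to 26.9) in KO_HFD. Thinned to 5000 UMIs per cell, with 215, 35, 16 and 71 shallower members left out, it was 7.04% (6.09 to 8.08), 8.94% (7.42 to 10.7), 16.8% (12.9 to 21.2) and 15.9% (13.3 to 18.9). Both atherosclerotic libraries lay above both normocholesterolemic ones with and without thinning. Dact2 stood at 22.9, 28.3, 68.3 and 57.6 CPM, a log2 diet ratio of 1.58 (1.40 to 1.76) in the Lox pair and 1.03 (0.86 to 1.20) in the KO pair. The thinned share in the other fibroblasts was 1.47%, 1.01%, 2.56% and 1.44%. Dpp4 stood higher in both atherosclerotic libraries by less than 2-fold (64.8, 61.9, 114 and 90.7 CPM), with a UMI in 23.7%, 22.3%, 34.0% and 27.6% of members and, thinned, 14.9%, 14.8%, 25.7% and 23.4%. Of the 34 compared genes of the Dpp4 profile, Smpd3 was over 2-fold higher in both pairs and none lower, 19 lay above 0 in both and 5 below, and the median log2 ratio was 0.15. The level of Pi16 in members did not move in one direction (3764, 3531, 4034 and 3293 CPM), nor did that of Aldh1a3, whose log2 diet ratios were 0.88 and −0.00. Wnt10b (0.14 and 0.42) and Cadm3 (0.06 and 0.41) differed by less than 2-fold. Without the Dact2 cells the log2 diet ratios were −0.69 and 0.12 for Wnt10b, −0.95 and −0.17 for Cadm3 and 0.25 and −0.73 for Aldh1a3, with negative means. The cells left out had more of these markers and were a larger share of the atherosclerotic libraries, so lower ratios without them follow in part from the split itself.

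**Figure D3:**
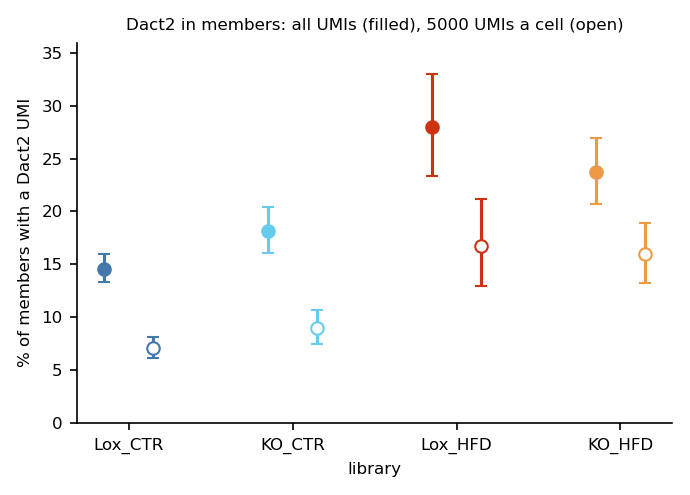
Share of Pi16+ fibroblasts with at least 1 Dact2 UMI (%, vertical axis) in each library (horizontal axis); filled points use all UMIs, open points cells thinned to 5000 UMIs, and bars are exact 95% intervals of counting error. Both atherosclerotic libraries lie above both normocholesterolemic ones, at 28.0% and 23.7% against 14.6% and 18.2% with all UMIs.

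Between diets, Pi16+ fibroblasts had lower RNA of 8 sterol genes, Igf1, Tcf21 and Tbx20 and higher RNA of Mmp3, Cfb, Cxcl12 and 7 Hox genes in the atherosclerotic libraries. Of 12906 compared genes, 84 (0.651%) were over 2-fold higher in both atherosclerotic libraries than in their normocholesterolemic partners and 177 (1.37%) lower. Taken by pair, 366 were higher and 531 lower in the Lox pair and 272 and 514 in the KO pair, and 55 genes passed 2-fold in opposite directions. Of the 261 genes that passed in both pairs, 77 had enough UMIs in the other fibroblasts, of which 64 had the same sign in both pairs and 39 also passed 2-fold there.

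Cells make cholesterol from acetyl-CoA by a chain of enzymes whose genes are switched on by SREBP2, encoded by Srebf2, when sterols in the cell are low. Of 28 compared genes of sterol and fatty acid synthesis, uptake and export, 8 were over 2-fold lower in both atherosclerotic libraries and none higher, and 20 were below 0 in both pairs. The list's median log2 ratios were −0.44 and −0.82 in the Lox and KO pairs, against 0.06 and −0.04 for all compared genes. Idi1, which makes an isoprenoid building block, stood at 24.8, 54.1, 6.98 and 10.3 CPM, log2 ratios of −1.83 (−2.34 to −1.36) and −2.39 (−2.71 to −2.09). Cyp51, the lanosterol demethylase, stood at 23.2, 46.6, 6.61 and 11.4 CPM. Both were highest in KO_CTR and lowest in Lox_HFD, and no atherosclerotic value reached a normocholesterolemic one. The squalene enzymes Fdft1 (10.5, 17.6, 2.57 and 3.39 CPM) and Sqle (7.33, 11.5, 0.918 and 1.49), the farnesyl synthase Fdps (41.7, 48.6, 15.4 and 18.6) and the cholesterol transporter Stard4 (7.44, 13.4, 3.12 and 4.24) had the same split. The 3 genes of the list above 0 in both pairs were Abca1, Abcg1 and Mylip. Abca1, a cholesterol exporter, stood at 62.7, 76.5, 119.8 and 108 CPM, and Mylip, a ubiquitin ligase gene, had log2 ratios of 0.67 and 0.32. Abcg1, also an exporter, had 11, 25, 12 and 17 UMIs (log2 ratios 2.81 and 0.65). None of the 3 passed 2-fold in both pairs.

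KO_CTR carried much of the size of the KO ratios. In it 27 of the 28 sterol genes were above Lox_CTR, with a median log2 ratio of 0.56, and the summed level of the list was 693, 1050.1, 628 and 614 CPM. The list's medians in the other fibroblasts were −0.65 and −1.11, in smooth muscle cells −0.38 and −0.18 and in leukocytes −0.22 and −0.51, so medians below 0 were found in these cells too. Inside the Pi16+ cells they were −0.43 and −1.07 in Q1 and −0.50 and −0.72 in Q4. The CCAAT box is bound by NF-Y, a known partner of SREBP2, and 14 of the 18 sterol genes with a RefSeq promoter (77.8%) held it on either strand in the 250 bases before the start, against 34.5% of 27025 promoters. The list holds known genes of sterol metabolism, so this share describes the listed genes and was not a test of the diet ratios. Promoters of 2 of the 8 genes that passed 2-fold were in the RefSeq table and are shown because both genes were lower in both pairs. They are Idi1 at chr13:8885356-8885605 (plus strand) and Cyp51 at chr5:4104698-4104947 (minus strand), both GRCm38.p6, read 5′ to 3′ along the gene with CCAAT or its reverse complement ATTGG in capitals.
Idi1: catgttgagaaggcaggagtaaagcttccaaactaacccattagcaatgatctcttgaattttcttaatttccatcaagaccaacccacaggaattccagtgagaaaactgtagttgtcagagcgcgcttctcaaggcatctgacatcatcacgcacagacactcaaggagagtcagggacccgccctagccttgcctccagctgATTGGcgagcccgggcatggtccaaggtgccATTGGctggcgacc
Cyp51: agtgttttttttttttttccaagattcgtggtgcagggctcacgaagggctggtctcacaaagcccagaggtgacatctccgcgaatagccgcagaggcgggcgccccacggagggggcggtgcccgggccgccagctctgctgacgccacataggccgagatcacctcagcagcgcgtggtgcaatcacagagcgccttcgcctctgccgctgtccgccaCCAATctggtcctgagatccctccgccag
In both, the box lies near the end of the window that meets the start of the gene, and Idi1 holds 2 copies. A match is only a match of letters and shows no binding. The promoters of genes higher or lower in Q4 held the box in 35.0% and 31.5%, near the share of all promoters.

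**Figure D4:**
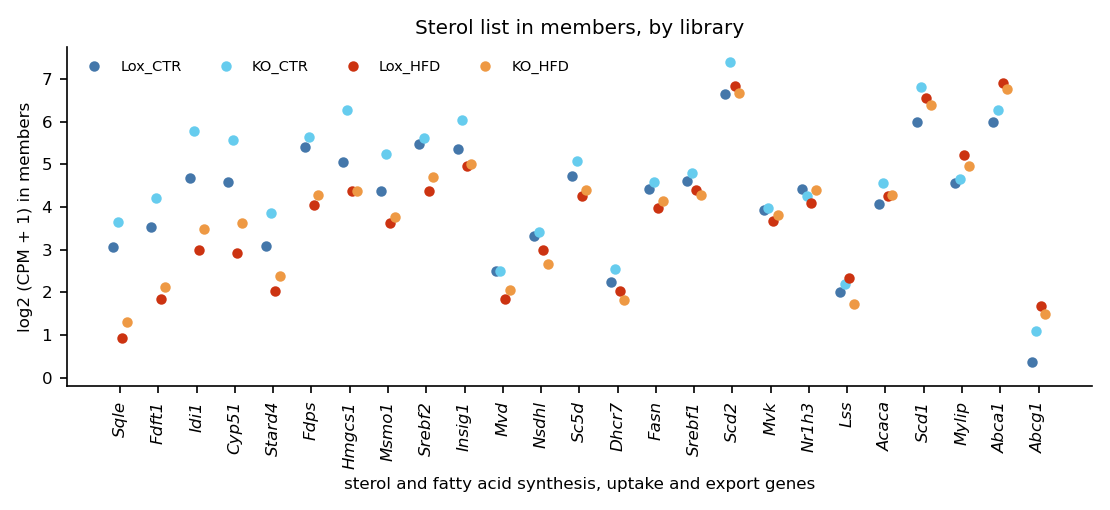
Level of 25 of the 28 sterol and fatty acid synthesis, uptake and export genes (log2 of CPM + 1, vertical axis) in the Pi16+ fibroblasts, a point per library and gene. Idi1, Cyp51, Sqle, Fdft1, Fdps and Stard4 stand lower in both atherosclerotic libraries, and every gene drawn but Nr1h3 stands higher in KO_CTR than in Lox_CTR.

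Mmp3, Cfb, Cxcl12 and Tnfsf13b were among the higher genes. Mmp3, a matrix metalloproteinase that cleaves proteoglycans and basement membrane, stood at 514, 334, 1415 and 1431 CPM, log2 ratios of 1.46 (1.42 to 1.50) and 2.10 (2.06 to 2.14). Cfb, complement factor B, stood at 46.8, 38.0, 127 and 128 CPM, the only one of 18 compared complement genes past 2-fold in both pairs. C3, the central complement protein, was higher by less than 2-fold (log2 ratios 0.43 and 0.47). Cxcl12, a chemokine for leukocytes and progenitors, stood at 410.3, 291, 917 and 759.6 CPM, and Tnfsf13b, the B cell survival factor BAFF, at 26.9, 23.0, 59.1 and 49.9. Of 31 compared chemokine, cytokine and receptor genes these last 2 were higher and 3 lower (Cxcl10, Cxcl14 and Ackr4), with 11 above and 11 below 0 in both pairs and a median log2 ratio of −0.19. For Mmp3, Cfb, Cxcl12 and Tnfsf13b the 2 atherosclerotic values lay above both normocholesterolemic ones. Tnfsf13b passed 2-fold in both pairs in Q1 (log2 ratios 1.57 and 1.44) but in neither in Q4 (0.04 and 0.56). Apod, a lipid-binding apolipoprotein, stood at 65.3, 57.8, 143 and 149 CPM, and Smpd3 (log2 ratios 1.90 and 1.29) and Bmp3 (1.83 and 1.49) were higher too. Without the Dact2 cells the ratios were 1.03 and 1.14 for Smpd3 and 0.79 and 1.02 for Bmp3, which then did not pass 2-fold in the Lox pair. Both genes were higher with Dact2, so lower ratios follow in part from the split itself. Lcn2, a siderophore-binding protein of acute inflammation, stood at 5.30, 2.96, 27.2 and 44.2 CPM, but a single cell held 81 of 148 UMIs in Lox_HFD and 102 of 417 in KO_HFD. Mcpt4, a mast cell protease, stood at 0.749, 0.319, 4.78 and 5.20 CPM and was seen in 0.945%, 0.470%, 7.14% and 5.12% of members. In smooth muscle cells, which should lack it, the shares in Lox_CTR, Lox_HFD and KO_HFD were 0.778%, 9.84% and 4.02%, like those of members. In KO_CTR smooth muscle cells it was at 0 CPM. Leukocytes held it at 19.5, 1.07, 7.24 and 60.5 CPM. The macrophage list, led by Lyz2, stood at 252, 239, 235 and 417 CPM in members, highest in KO_HFD, and its part in the KO pair was not tested.

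Hox genes set position along the body axis. Of 17 compared Hox genes 7 were over 2-fold higher in both atherosclerotic libraries and 13 above 0 in both pairs, with median log2 ratios of 1.50 and 0.66. Hoxa7 stood at 4.42, 7.87, 25.9 and 16.4 CPM, Hoxb8 at 2.14, 2.18, 12.9 and 6.68, and Hoxc8 at 0.669, 1.14, 6.43 and 3.29. The summed level of the Hox list was 152, 148, 266 and 209 CPM in members, 206, 187, 221 and 195 in the other fibroblasts and 147, 189, 285 and 185.5 in smooth muscle cells. Among members with Dact2 the list's medians were 0.43 and −0.17, so the KO median lay below 0 there. Of 48 compared mesenchymal transcription factor genes 6 were lower and none higher, while 16 lay above 0 in both pairs and 17 below, and the list's median log2 ratio was −0.02. The 6 were Tcf21, Tbx5, Tbx20, Gata4, Meox1 and Wt1. Tcf21 stood at 113, 153, 31.4 and 28.8 CPM, Tbx20 at 12.8, 43.8, 0.735 and 1.91, and Gata4 at 4.01, 9.47, 0 and 0.637, at least 7.28-fold lower in Lox_HFD than in Lox_CTR with a floor of 3 UMIs per library. Tcf21 had a UMI in 36.2%, 49.1%, 14.6% and 12.4% of members, Tbx20 in 5.39%, 21.3%, 0.857% and 1.62%, and Gata4 in 117, 150, 0 and 5 cells. Beside them, 3 of the 4 compared mesothelial markers were lower, Msln, Upk3b and Wt1, which is on both lists. Msln had 38, 25, 0 and 0 UMIs, the 38 in a single cell, and Upk3b had 65, 53, 0 and 1, with 43 and 51 of the first counts in a single cell each. The heart muscle list, led by Tnnt2, stood at a summed 10.7, 50.2, 6.61 and 7.21 CPM in members, highest in KO_CTR like Tcf21, Tbx20 and Gata4. The part of the mesothelial and heart muscle RNA in these differences was not tested.

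Of 36 compared growth factor and receptor genes, Igf1 and Ptn were over 2-fold lower in both pairs and none higher, while 16 lay above 0 in both pairs and 11 below. Igf1, insulin-like growth factor 1, stood at 478, 549.8, 173 and 244 CPM, log2 ratios of −1.46 (−1.56 to −1.37) and −1.17 (−1.23 to −1.10). Ptn, the heparin-binding growth factor pleiotrophin, had 2315, 555, 1 and 32 UMIs in 134, 51, 1 and 6 cells, so a small set of cells carried it in every library. Rspo1, an R-spondin, was the only one of 14 Wnt ligand and R-spondin genes past 2-fold, at 13.6, 14.1, 5.69 and 5.52 CPM. The chemokine genes Cxcl10 (27.6, 29.0, 12.9 and 7.11 CPM) and Cxcl14 were lower, while none of 26 compared collagen genes passed 2-fold in either direction. Cxcl14 had a UMI in only 41, 25, 0 and 2 members. A single cell held 100 of its 349 UMIs in Lox_CTR and 44 of its 46 in KO_HFD.

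**Figure D5:**
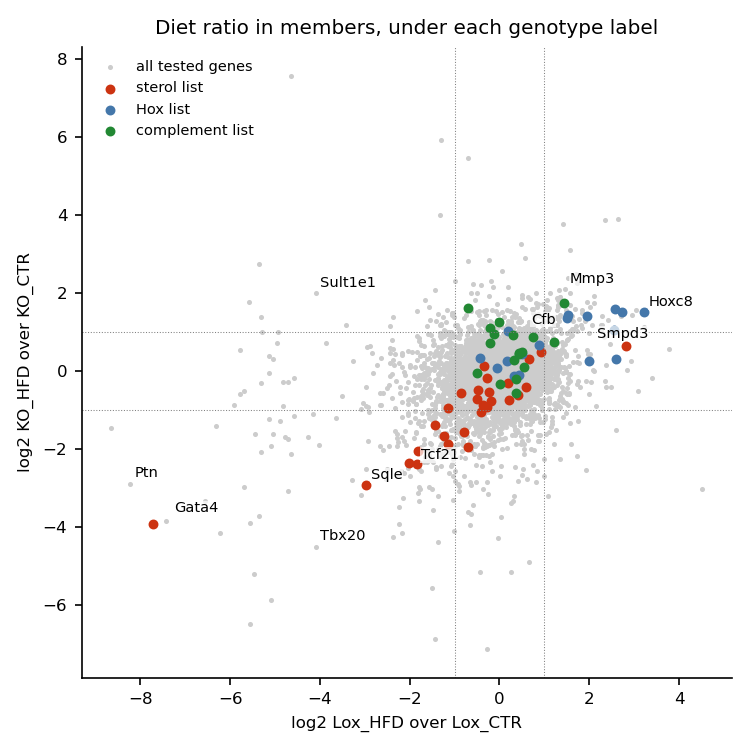
Log2 ratio of atherosclerotic to normocholesterolemic level in Pi16+ fibroblasts, Lox pair (horizontal axis) against KO pair (vertical axis), a point per gene; grey points are all compared genes, with sterol genes in red, Hox genes in blue and complement genes in green, and dotted lines at 1 and −1 mark 2-fold. Sterol genes lie toward the lower left, with medians of −0.44 and −0.82, and Hox genes toward the right, with medians of 1.50 and 0.66. The pairs share no library, and a gene at 0 UMIs in a library is placed by a prior of 0.5 UMIs.

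Between the genotypes as labelled, few genes differed in the same direction in both diets. Of 11921 compared genes, 20 (0.168%) were over 2-fold higher in both libraries labelled Nrf2Cdh5tKO and 11 (0.0923%) lower, against 179 higher and 132 lower in the normocholesterolemic pair alone and 182 and 121 in the atherosclerotic pair alone. In opposite directions past 2-fold were 38 genes, more than the 31 that passed in one direction. Of these 31, 5 had enough UMIs in the other fibroblasts, of which 1 had the same sign in both pairs and none passed 2-fold.

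Of 32 compared genes of the Nrf2 response, 1 passed 2-fold in both pairs, the iron exporter Slc40a1, which was higher. It had 40, 59, 4 and 18 UMIs, and the interval of its log2 ratio in the atherosclerotic pair, −0.22 to 3.4, held 0. The list's median log2 ratios were −0.09 in the normocholesterolemic and −0.02 in the atherosclerotic pair. Nqo1, a quinone reductase and a commonly used Nrf2 target, stood at 3.16, 2.64, 4.04 and 2.12 CPM. Gclm, a subunit of the enzyme that makes glutathione, stood at 43.1, 50.6, 37.5 and 40.7 CPM and Txnrd1, thioredoxin reductase, at 101, 77.1, 68.3 and 68.1. Hmox1, heme oxygenase, stood at 90.1, 42.6, 37.7 and 32.9 CPM, past 2-fold in the normocholesterolemic pair only (log2 ratios −1.08 and −0.19). Nfe2l2 itself differed by 0.07 (0.01 to 0.12) and 0.29 (0.19 to 0.39).

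The higher genes included Sparcl1, Col8a1 and Meox1, each most abundant in KO_CTR. Col8a1 was the only one of 26 compared collagen genes past 2-fold in both pairs, and the list's medians were 0.39 in the normocholesterolemic and −0.15 in the atherosclerotic pair. None of 10 small leucine-rich proteoglycan, 21 elastic fibre and 34 matrix protease genes passed. Sparcl1, a matricellular protein, stood at 62.5, 404, 21.9 and 50.1 CPM, with a UMI in 19.3%, 40.4%, 10.0% and 13.5% of members. Its share in smooth muscle cells was 77.4%, 61.3%, 59.0% and 61.2%. Col8a1, a short-chain collagen of vessel walls, stood at 24.7, 216, 21.5 and 43.2 CPM and Meox1 at 27.1, 146.5, 7.71 and 16.8. Both had their one high value in KO_CTR. In the atherosclerotic pair the log2 ratios of Sparcl1, Col8a1 and Meox1 were 0.72, 0.16 and −0.92 in Q1, so Meox1 turned there. In Q4 they were 1.12, 2.28 and 5.26, with Meox1 at 0 UMIs in Lox_HFD. Without the Dact2 cells they were 1.15, 0.73 and 0.71, so Col8a1 and Meox1 did not pass 2-fold in that pair. The share of members with at least 3 UMIs of Cilp and Meox1 together was 8.01%, 28.1% (25.6 to 30.6), 4.86% and 5.26%, highest in KO_CTR. This share counts the UMIs of Meox1 itself, so it restates that gene's level in part. It is given at full depth, and KO_CTR had the deepest cells. Enpp6, a choline phosphodiesterase, stood at 3.21, 13.1, 0.735 and 3.50 CPM and Ankrd1, an ankyrin repeat protein, at 1.42, 4.55, 1.29 and 8.38. In Lox_HFD these values rest on 4 and 7 UMIs. Smooth muscle cells held Ankrd1 at 26.2, 16.4, 2.88 and 20.5 CPM, above members in every library. Q1 held 68 of the 79 Ankrd1 UMIs of KO_HFD, and its log2 ratio in the normocholesterolemic pair was −0.64 there.

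The 11 lower genes included S100a9, S100a8, Camp and Il1b. S100a9, a calcium-binding protein abundant in neutrophils, stood at 32.5, 4.96, 18.4 and 2.55 CPM and had a UMI in 32.5%, 7.99%, 22.3% and 3.1% of Pi16+ fibroblasts. The shares in smooth muscle cells were 33.9%, 7.39%, 13.1% and 3.57%, close to those of members outside Lox_HFD. In leukocytes S100a9 stood at 4903, 2905.5, 11277 and 2562 CPM and S100a8 at 3792, 2178, 9330 and 2017, also lower in both libraries labelled Nrf2Cdh5tKO. Smooth muscle cells should lack S100a9, and the part of free RNA in these values was not tested. S100a8 (20.4, 3.73, 15.2 and 2.33 CPM) and the granule gene Camp (5.08, 0.774, 4.41 and 0.212) had the same order. Il1b, the cytokine interleukin 1 beta, stood at 7.47, 2.68, 9.0 and 3.18 CPM, against 5.67, 2.69, 2.88 and 2.52 in smooth muscle cells. With every cell thinned to 5000 UMIs, 0 of the genes with enough UMIs left were over 2-fold lower in both pairs, and the mean log2 ratios were −0.12 for S100a9, −0.15 for S100a8, −0.70 for Il1b and −1.24 for Camp. By library, thinned S100a9 stood at 31.2, 4.69, 16.1 and 90.2 CPM and S100a8 at 19.3, 3.71, 15.3 and 64.2. The normocholesterolemic pair thus stayed over 2-fold lower, the atherosclerotic pair turned, and the means near 0 join opposite ratios. In thinned KO_HFD 2 cells that are not members without thinning held 231 of the 243 S100a9 UMIs.

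Marker lists of other cell types were read in members as sums. The smooth muscle list, led by Acta2, summed to 499, 340.3, 249 and 567 CPM, against 41613, 39032, 34436 and 38472 in smooth muscle cells, and 74.6% of members held at least 3 of its UMIs. The macrophage list, led by Lyz2, stood at 252, 239, 235 and 417 CPM, against 21038, 13709, 11377 and 21403 in leukocytes, with at least 3 UMIs in 51.7% of members. The pericyte list, led by Abcc9, stood at 428, 397, 437 and 509.8 CPM with the pericyte gene Higd1b at 0, against 650.1, 854, 1437 and 980.1 in smooth muscle cells, and 60.2% of members held at least 3 of its UMIs. The endothelial list, led by Pecam1, stood at 46.1, 35.7, 18.2 and 25.0 CPM and the lymphocyte list, led by Cd3d, at 8.13, 9.37, 5.69 and 4.67. The endothelial list was lower in both atherosclerotic libraries, with median log2 ratios of −1.15 and −1.26. The Schwann cell list (508, 624, 442 and 461 CPM) was led by Pmp22, which fibroblasts also express, and the adipocyte list (14.3, 9.51, 17.1 and 21.1 CPM) by Plin4, with Lep at 0. In Lox_CTR a single member held 1835 of the haemoglobin Hbb-bs UMIs, and the erythroid list stood at 95.3, 6.69, 2.57 and 13.3 CPM. A doublet caller marked 22 members (0.421%) and 306 of the 14148 kept cells (2.16%).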

How the data were processed

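The authors dissociated and sorted the cells, sequenced 10x Chromium 3′ libraries and, per the submitters' processing notes, used Cell Ranger 6.1.2 and mm10. The deposited values were whole UMI counts, not normalized, per gene and cell barcode. Cells were kept and chosen by the rule in the text. The members and gene lists were chosen with earlier results of these data known. UMIs were summed per library and cell group and divided by their total (CPM). Log2 ratios used a prior of 0.5 UMIs where an arm could be 0; a gene was compared with at least 20 UMIs over the groups compared in every library or pair, and called past 2-fold in all 4 libraries or both pairs. Intervals were exact (Poisson for levels, Clopper-Pearson for shares, binomial for ratios; 95%). A fold against 0 used a floor of 3 UMIs. UMIs limit PCR copies, but intervals and floors cover counting error only.

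Named were the 20 largest and 15 smallest mean ratios over libraries against other fibroblasts, the 3 largest and 2 smallest of each list, the 5 markers given, and for diet and genotype the 10 largest and 10 smallest that passed in both pairs, with list members that passed. Some of them are not reported here, and genes of the text outside it (such as Col1a1, Abca1, Abcg1, Mylip, C3, Nqo1) were picked after their values were seen. The planned comparison of cells with only Pi16 and only Dact2 could not be made, since no member lacked Pi16. The bins by Pi16 and the split by Dact2 were added after the data were seen. Doublets were called with Scrublet (in scanpy) and left in. Promoter sequences came from RefSeq (GRCm38.p6) and positions from the annotation of GRCm38. Scripts were tested on simulated data. Analyses ran in Python 3.11.15 with scipy 1.17.1, numpy 2.4.6, matplotlib 3.10.9, pandas 2.3.3, scanpy 1.11.5 and a random seed of 1.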

Additional observations from a re-analysis of the deposited data

Results flagged for a closer look

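Several genes moved past 2-fold in opposite directions in the 2 pairs of a contrast within Pi16+ fibroblasts, and the difference was not tested. For diet these were 55 genes and for genotype 38, and those with at least 200 UMIs in each pair, 5 and 4, are named here. For diet, as log2 ratios in the Lox and the KO pair, the 5 were Cytl1, a cytokine-like protein of cartilage (−1.20 and 1.25), Sult1e1, an estrogen sulfotransferase (−4.08 and 2.00), Aqp1, a water channel (−1.30 and 1.22), Tagln, an actin-binding protein of smooth muscle (−1.12 and 1.002), and Nme2, a nucleoside diphosphate kinase (−1.17 and 1.58). For genotype, in the normocholesterolemic and the atherosclerotic pair, the 4 were Sult1e1 (−2.35 and 3.70), Cxcl13, a B cell chemokine (−1.14 and 3.43), Clu, a secreted chaperone (−1.03 and 1.29), and Ccdc152 (2.15 and −1.07). A single cell held 181 of the 233 Sult1e1 UMIs of KO_HFD and 88 of the 135 of KO_CTR, and 112 of the 268 Cxcl13 UMIs of KO_HFD. The smooth muscle list in members also went both ways, with median log2 ratios of −1.02 and 0.46 for diet and −0.54 and 1.09 for genotype. Its part in the ratios of Tagln, Aqp1 and Clu was not tested.

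Outside the limits on genes and mitochondrial share, 34 barcodes met the rest of the rule, in data that no comparison above used. Of these, 29 had over 6000 genes (8, 15, 1 and 5 by library) and 5 too many mitochondrial UMIs (3, 2, 0 and 0). The 29 had a median of 39666 UMIs, Pi16 at 2863 CPM against 3655 in members, and a Dact2 UMI in 41.4%.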

How the results depend on the processing

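The labels carry no replicate numbers, so no fit blocked on them was made. Diet was read within each genotype and genotype within each diet, as ratios with no test. With at least 2 UMIs of Pi16 and Dact2 the Pi16+ share was 85.6% in Lox_CTR, 94.1% in KO_CTR and 82.5% in KO_HFD, and with at least 5 it was 72.5%, 87.5%, 79.4% and 67.3%; thinned to 5000 UMIs it was 76.9% in Lox_CTR and 87.8% in KO_CTR. The thinned Dact2 shares were 7.04%, 8.94%, 16.8% and 15.9%. Counts of genes past 2-fold moved by over 1.5 times as follows. Against other fibroblasts, 30 were higher when thinned and 303 with no filter on UMIs, and 17 were lower with at least 2 UMIs in the rule, 9 when thinned, 11 as a mean over cells, 17 with at least 50 UMIs and 90 with no filter. Leaving out 1 library gave 103 to 133 higher and 45 to 59 lower, since fewer libraries then had to pass (46 without Lox_CTR, 45 without KO_CTR, 59 without Lox_HFD, 46 without KO_HFD). For diet, 48 were higher with at least 50 UMIs and 273 with no filter; 96 were lower when thinned, 92 with at least 50 UMIs and 1323 with no filter. For genotype, 10 were higher when thinned, 7 with at least 50 UMIs and 300.0 with no filter; 0 were lower when thinned, 4 with at least 50 UMIs and 373 with no filter. Between Q4 and Q1, 71 were higher and 99 lower without the Dact2 cells, an alternative chosen after seeing the data, and 131 lower with at least 50 UMIs (187 to 207 and 232 to 294 without 1 library). By Dact2, 135 to 169 were higher and 253 to 291 lower without 1 library.

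Each named ratio is a gene in 1 comparison, so some genes count more than once. Of 1086 recomputed values of 125 such ratios, 1066 kept direction and side of the limit, 15 kept direction but not the limit, and 5 reversed. The reversals are of mean log2 ratios, so a single pair could turn without being counted. Without the Dact2 cells Car3 did so, with a log2 diet ratio of −0.50 in the KO pair. Thinned, Krt25 was at −0.48 and Ngp at 0.048 as mean log2 ratios, with 20 of the 22 Ngp UMIs of KO_HFD in 2 cells. Without the Dact2 cells the mean diet ratios of Wnt10b (−0.28), Cadm3 (−0.56) and Aldh1a3 (−0.24) reversed, in part through the split itself. Thinned, S100a9 (−0.12) and S100a8 (−0.15) no longer passed by genotype, as means of opposite pairs. In the normocholesterolemic pair S100a9 stayed lower, at 31.2 CPM in Lox_CTR and 4.69 in KO_CTR, and S100a8 at 19.3 and 3.71. Only the atherosclerotic pair turned, with S100a9 at 16.1 CPM in Lox_HFD and 90.2 in KO_HFD, and S100a8 at 15.3 and 64.2. In thinned KO_HFD 2 cells held 231 of 243 S100a9 UMIs and 169 of 173 S100a8 UMIs, and 0 of these were members without thinning. Limits of 10% mitochondrial UMIs and removal of doublets left every count within 1.5 times. Without 1 library, diet and genotype each keep 1 pair, whose counts are given above. Lox_HFD, with 350 members, limits the precision of its ratios most.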
